A study of Arabidopsis thaliana with 8 samples.

Results

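AT1G26400 and AT5G44380 are the 2 genes described here, out of 14228 loci that could be named on the array and 26912 probes in all. Each is an Arabidopsis FAD-linked oxidoreductase of the berberine bridge enzyme-like family and is represented by 1 probe. Both were chosen with results of these data known. AT5G44380 was chosen by its ratio after PCR, and AT1G26400 by its difference between 2IVT and unamplified target. Those values, and those that share slides with that difference, are given as a description with no test.

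Siliques, the seed pods, were compared between a 90%-late sample (6 to 10 days after pollination, DAP, mixed with 10% early material) and an early sample (2 to 5 DAP) of Arabidopsis thaliana. Target was made in 4 regimes: 1 round of in vitro transcription (IVT, from 5 µg of total RNA), 2 rounds (2IVT, from 50 ng), 20 cycles of PCR (from 50 ng), and conventional labelling without amplification (unamplified, from 30 µg). Each regime was hybridized to 2 slides, so there were 8 slides. The same pair of RNA samples served every slide, and in each amplified regime both slides carried the same preparation of 90%-late target, so the errors measure early target preparation and hybridization and not plants. The early sample was labelled with Cy5 and the 90%-late sample with Cy3 throughout, so stage and dye cannot be told apart, and the consecutive slides of a regime leave slide batch and regime confounded.

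The berberine bridge enzyme itself is known from poppies, where it closes a ring in the synthesis of benzylisoquinoline alkaloids. Arabidopsis does not make these alkaloids, yet it holds many relatives of the enzyme, mostly secreted proteins with a covalently bound flavin. Members with a known substrate oxidize monolignols, the building blocks of lignin, or fragments of pectin and cellulose, or indole compounds made in defence. Oxidases of this kind can pass the electrons to oxygen and so release hydrogen peroxide.

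All values are log2 ratios of 90%-late over early, so that a positive value is higher in 90%-late siliques. The deposited ratios run the other way and were turned. Neither their log base nor their direction is stated with the values. Both were inferred, the direction from the dye of each stage and the long tail of ratios that the turned values show towards 90%-late. Between 22733 and 24403 probes had a value on a slide, with medians from -0.08 to -0.01. Of 8 listed markers of maturing seeds, 2 oleosin genes had a probe that could be named. Both were higher in 90%-late siliques in every regime, with means between 0.67 and 3.43 in the amplified regimes and of 6.11 and 8.98 in unamplified target. BAN and DFR, of the seed coat, had means from -1.45 to 0.07. The part of these tissues in the ratios below was not tested, and in whole siliques fewer cells of a type and less RNA per cell cannot be told apart.

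AT1G26400 was higher in 90%-late siliques on all 8 slides, by a moderate ratio without amplification and by a large one after each amplification. Its log2 ratio was 3.19 and 3.28 on the IVT slides. The 2IVT slides gave 3.69 and 3.92, the largest values of this gene. On the PCR slides it was 2.31 and 2.31. The unamplified slides gave 0.70 and 0.47, below every amplified slide. For 2IVT this follows from how the gene was chosen, and IVT and PCR are set against the same unamplified slides. How many of all probes separate in this way was not counted.

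As means, the ratio of AT1G26400 was 3.23 ± 0.06 (SD, n = 2 slides) after IVT, or 9.41-fold, 3.80 ± 0.17 after 2IVT (14.0-fold), 2.31 ± 0.0018 after PCR (4.95-fold) and 0.58 ± 0.16 in unamplified target (1.50-fold). The order of the means was 2IVT, IVT, PCR and unamplified. That 2IVT and unamplified lie far apart in it follows from the choice of the gene. With slides scaled to a common spread IVT and PCR changed places, at 2.67 and 2.78. In limma, a linear model fitted over all probes and all 8 slides, the adjusted p (Benjamini-Hochberg) was 2.64e-09 after IVT and 9.94e-07 after PCR. At an adjusted p under 0.05, 22.2% of probes were called higher in 90%-late siliques after IVT and 14.4% after PCR. Calls were thus common, and the place of the gene among all probes is given beside them.

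**Figure D1:**
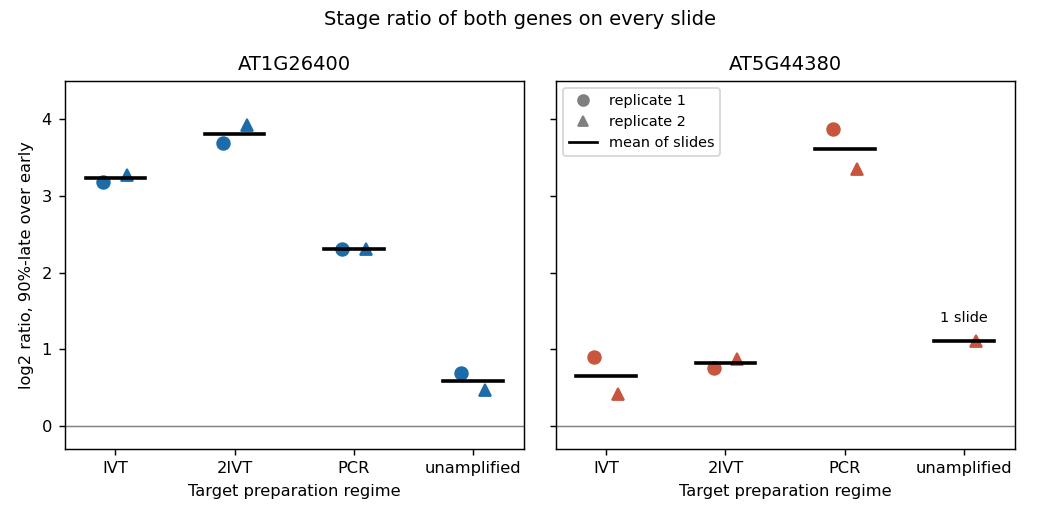
Log2 ratio of 90%-late over early siliques (vertical axis) for AT1G26400 (left) and AT5G44380 (right) by regime (horizontal axis). Circles and triangles are the replicate slides and the black line is their mean. AT1G26400 lay at 2.31 or above on every amplified slide and at 0.70 or below on both unamplified slides, whereas AT5G44380 passed 3 on the PCR slides alone and had 1 unamplified value.

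On the 2IVT slides AT1G26400 ranked 22 of 22733 and 25 of 23518 probes, counted from the highest ratio. On the PCR slides it ranked 70 of 23696 and 32 of 23795. It stood further down on the IVT slides, at 370 of 24285 and 386 of 24171, although its own ratio exceeded that after PCR, since the ratios of all probes spread more widely after IVT. In unamplified target it ranked 2217 of 24230 and 3505 of 24403, with 9.15% and 14.4% of probes above it.

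The difference between amplified and unamplified target was 3.22 for 2IVT, the value by which AT1G26400 was chosen. For IVT it was 2.65 and for PCR 1.73, against the same unamplified slides. The 2IVT difference ranked 4 of 23831 probes. Between amplified regimes, the ratio after PCR was lower than that after IVT by 0.93 (difference -0.93 ± 0.16, SE from limma, 95% interval -1.28 to -0.58, adjusted p = 0.00101). In this comparison 17.2% of all probes were called lower after PCR, and the PCR slides had the narrowest spread of ratios (SD over probes 0.47, against 0.91 and 0.95 on the IVT slides). With slides scaled to a common spread the difference was 0.11 (adjusted p = 0.786), so its direction depends on that scaling. The 2IVT ratio lay above the IVT ratio by 0.57, and PCR minus 2IVT was -1.50. With scaled slides these differences were 0.997 and -0.89.

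The replicate slides of AT1G26400 lay much closer together than typical after PCR and nearer to the typical gap elsewhere. They differed by 0.09 after IVT, 0.24 after 2IVT, less than 0.01 after PCR and 0.23 without amplification. The median gap over all probes was 0.12, 0.21, 0.20 and 0.15 in the same order of regimes. After PCR 99.4% of probes had a larger gap, after IVT 60.2%, after 2IVT 45.9% and in unamplified target 32.6%.

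AT5G44380 was higher in 90%-late siliques on the 7 slides that gave a value, moderately in 3 regimes and by a large ratio after PCR. Its log2 ratio was 0.90 and 0.41 on the IVT slides. On the 2IVT slides it was 0.75 and 0.88. The PCR slides gave 3.87 and 3.35. Of the unamplified slides, replicate 2 gave 1.11 and replicate 1 had no value. The PCR values, by which the gene was chosen, stood clear of the others. The slides of the other regimes ran from 0.41 to 1.11, the highest being the single unamplified value.

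Its mean was 0.66 ± 0.35 (SD, n = 2 slides) after IVT, 0.81 ± 0.09 after 2IVT (1.76-fold) and 3.61 ± 0.37 after PCR (12.2-fold), against the single unamplified value of 1.11 (2.16-fold). The ratio passed the threshold after IVT (adjusted p = 0.00539, limma) and 2IVT (adjusted p = 0.00195). The lone unamplified slide has no spread of its own. Its adjusted p of 0.00264 (limma) assumes that it varies like the slides of the other regimes, and it is not counted as support. Calls towards 90%-late made up 22.2% of probes after IVT, 19.8% after 2IVT and 17.3% in unamplified target. The IVT call was lost without IVT replicate 1, where the ratio was 0.41 (adjusted p = 0.163).

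Apart from PCR, no difference between regimes passed the threshold for AT5G44380. IVT minus unamplified was -0.46 (95% interval -1.06 to 0.15, adjusted p = 0.297, limma), -0.70 without IVT replicate 1 and -0.21 without IVT replicate 2. For 2IVT minus unamplified it was -0.30 (interval -0.90 to 0.31, adjusted p = 0.501), and for 2IVT minus IVT 0.16 (interval -0.34 to 0.65, adjusted p = 0.697). Without IVT replicate 2 the difference of 2IVT minus IVT was -0.09 (adjusted p = 0.913). Over all probes 16.7%, 16.0% and 13.3% were called in these comparisons in either direction.

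The PCR ratio of AT5G44380 was above the IVT ratio by 2.95, above the 2IVT ratio by 2.80 and above the unamplified ratio by 2.50, values that follow from how the gene was chosen. On the PCR slides it ranked 3 of 23696 and 6 of 23795 probes. Elsewhere it ranked between 1346 and 4802, with 5.51% of probes above it on the unamplified slide and 9.69% and 19.9% on the IVT slides. Its replicates were further apart than those of AT1G26400 after IVT and PCR and closer after 2IVT. The gap of 0.49 after IVT was exceeded by 3.82% of probes and that of 0.53 after PCR by 8.73%, while the gap of 0.13 after 2IVT was exceeded by 68.5%.

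**Figure D2:**
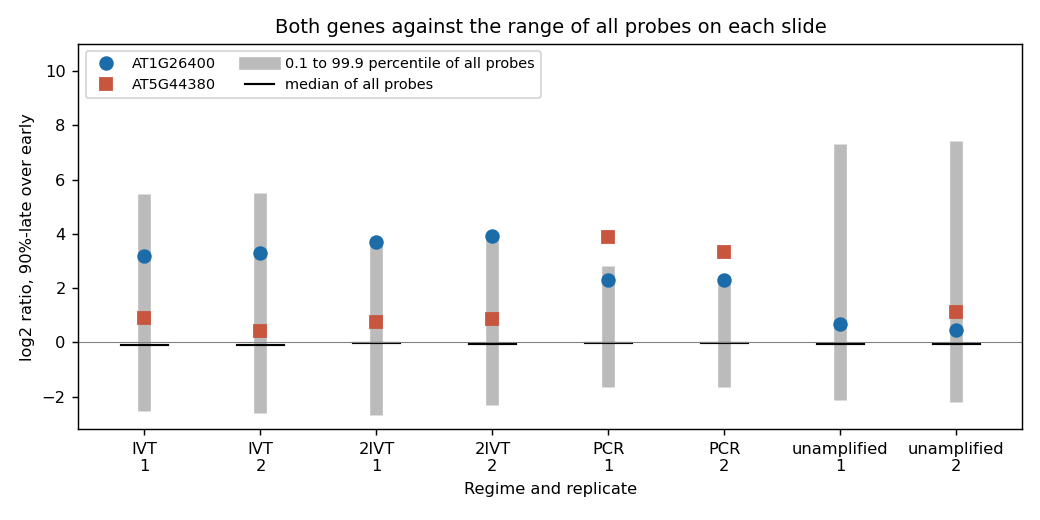
Log2 ratio of 90%-late over early siliques (vertical axis) on each slide (horizontal axis), with AT1G26400 as circles and AT5G44380 as squares. Grey bars leave out the lowest and highest 0.1% of probes, and black lines are the median. AT5G44380 exceeded the upper end of the bar on both PCR slides (2.80 and 2.45), and AT1G26400 lay near the upper end on the 2IVT and PCR slides and far below it on the unamplified slides (7.32 and 7.42).

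From the same 50 ng of RNA, AT1G26400 had 3.80 after 2IVT and 2.31 after PCR, whereas AT5G44380 had 0.81 after 2IVT and 3.61 after PCR. That the genes differ in the regime of their largest ratio follows from the values by which each was chosen, and nothing is read from it. Both lay above 0 on every slide with a value, which the choice of the genes favours on the PCR and 2IVT slides. Of 20638 probes with a value on each slide, 13.8% were above 0 on all.

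Of 27 loci listed for the family, 25 were matched to 26 probes, and 22 loci had a value on at least 1 slide. AT1G30740, AT2G34810 and AT4G20860 had a probe but no value on any slide. Beside AT1G26400 and AT5G44380 this left 20 loci with 21 probes. Some rose with the stage and some fell. After IVT, 7 of 21 passed towards 90%-late siliques and 8 towards early ones, beside 22.2% and 31.5% of all probes. The 2IVT counts were 3 and 8 of 20 (19.8% and 24.9% of all probes). The PCR counts were 5 and 5 of 20 (14.4% and 15.9%). Both PCR counts were lower when either PCR slide was left out, and so were those over all probes. In unamplified target 4 and 7 of 21 passed (17.3% and 25.5%). The count towards 90%-late was lower without unamplified replicate 2, as it was over all probes. With slides centred on their median the 2IVT counts were 4 and 6 of 20, beside 5172 and 5407 of 23898 probes in all. The median of the other family probes was 0.01, 0.07, -0.06 and -0.13 in the order IVT, 2IVT, PCR and unamplified, beside -0.08, -0.05, -0.02 and -0.07 over all probes.

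**Figure D3:**
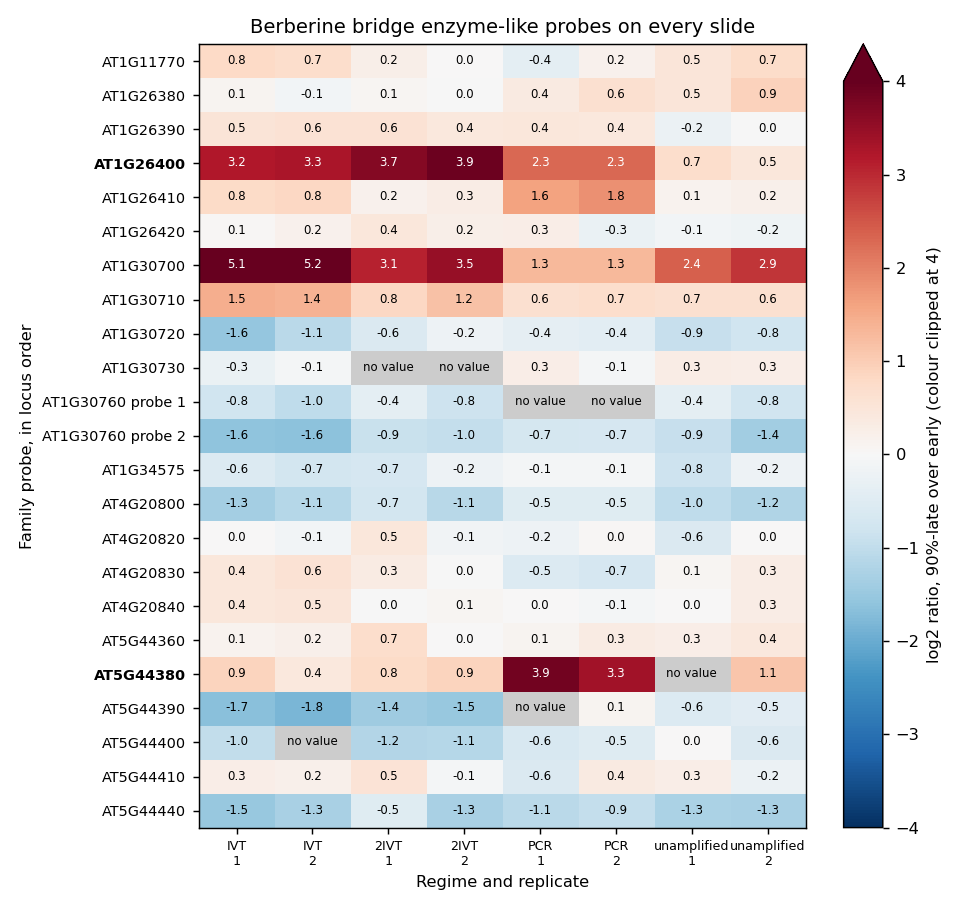
Log2 ratio of 90%-late over early siliques for 23 berberine bridge enzyme-like probes (rows, in locus order) on each slide (columns), with the value in each cell, red for higher and blue for lower in 90%-late siliques, and grey where a slide gave none. AT1G26400, AT5G44380 and AT1G30700 hold the largest ratios. AT4G20800 and AT5G44440 were below 0 on every slide.

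AT1G30700 was the other family gene with a large ratio towards 90%-late siliques. It had 5.06 and 5.20 on the IVT slides, 3.08 and 3.47 on the 2IVT slides, 1.28 and 1.31 on the PCR slides, and 2.40 and 2.86 on the unamplified slides. Unlike AT1G26400 it was already high without amplification, and it was lower after PCR than in unamplified target (difference -1.34, adjusted p = 0.00083, limma), a comparison in which 9.50% of probes were called lower. Its neighbour AT1G30710 was called higher in each regime too, with means of 1.43 ± 0.06 (SD, n = 2 slides) after IVT, 1.01 ± 0.24 after 2IVT, 0.66 ± 0.04 after PCR and 0.64 ± 0.02 in unamplified target.

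In the opposite direction, AT4G20800 and AT5G44440 were called lower in 90%-late siliques in every regime, as were 5.62% of 23548 probes with an estimate in each, beside 5.15% called higher in all 4. AT4G20800 had means of -1.24 ± 0.15 (SD, n = 2 slides) after IVT, -0.92 ± 0.28 after 2IVT, -0.49 ± 0.01 after PCR and -1.11 ± 0.15 in unamplified target. Those of AT5G44440 lay between -1.41 (IVT) and -0.89 (2IVT). AT1G30760, which encodes an oxidase of monolignols, has 2 probes, of which 1 was called lower in every regime (-0.69 to -1.62) and the other in the 3 regimes where it had values (-0.60 to -0.90). AT1G30720 was lower after IVT (-1.32 ± 0.34), after 2IVT (-0.39 ± 0.26) and in unamplified target (-0.86 ± 0.08), and AT1G34575 in the same 3 regimes. Of the 17 other family probes with a value on each slide, 4 were above 0 and 5 below 0 on all slides, beside 13.8% and 16.8% of 20638 such probes in all.

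AT1G26400 stands in the middle of a run of 5 family genes on chromosome 1, AT1G26380 to AT1G26420, with no other protein-coding gene between them. After each amplification none of its neighbours had a mean ratio as large, whereas in unamplified target AT1G26380 had a larger one. AT1G26410, the next gene, had the largest ratios among them after IVT and PCR. It had 0.76 and 0.84 on the IVT slides, 0.16 and 0.30 on the 2IVT slides, 1.61 and 1.83 on the PCR slides, and 0.14 and 0.20 on the unamplified slides. It was called higher after IVT and PCR and, like AT1G26400, had a larger ratio after PCR than in unamplified target (difference 1.55, adjusted p = 5.15e-05, limma, with 10.6% of probes called higher). After 2IVT, where AT1G26400 was highest, AT1G26410 had 0.23 ± 0.10 and was not called. AT1G26390 was called higher after IVT (0.53 ± 0.04), 2IVT (0.49 ± 0.11) and PCR (0.43 ± 0.02), and had -0.14 ± 0.15 in unamplified target. AT1G26380, whose enzyme oxidizes an indole compound in a defence pathway, was called higher after PCR (0.50 ± 0.18) and in unamplified target (0.71 ± 0.30) and had 0.01 ± 0.16 after IVT. AT1G26420 was not called in any regime, with means from -0.13 to 0.33. Probe sequences were not used here, so binding of target from one of these related genes to the probe of another was not tested.

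AT5G44380 opens a run of 4 family genes on chromosome 5, AT5G44380 to AT5G44410, again with no protein-coding gene between them. The next genes, AT5G44390 and AT5G44400, lay below 0 on most slides, and the last, AT5G44410, lay above 0 on 5 of 8. AT5G44390 had -1.67 and -1.84 on the IVT slides, -1.42 and -1.52 on the 2IVT slides, and -0.55 and -0.45 on the unamplified slides. All 3 regimes were called lower in 90%-late siliques. It gave 1 value of 0.12 on the PCR slides, where AT5G44380 had its largest ratios. AT5G44400 was called lower after IVT (-0.99 on its 1 slide, a call that takes its spread from the other regimes), 2IVT (-1.16 ± 0.02) and PCR (-0.57 ± 0.10), with -0.28 ± 0.43 in unamplified target. AT5G44410 was not called in any regime. Nor was AT5G44360, which lies on the other side of AT5G44380 with 1 gene between them. AT5G44360 was above 0 on all 8 slides, but only just on 1 of them. Its lowest and highest values, 0.0003 and 0.72, were both on 2IVT slides.

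**Figure D4:**
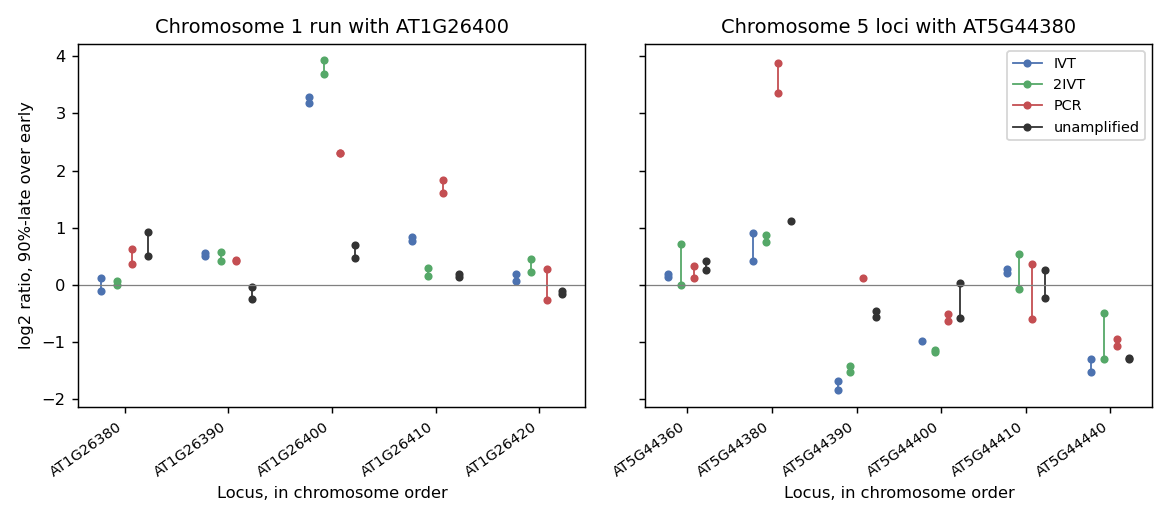
Log2 ratio of 90%-late over early siliques (vertical axis) for family genes in chromosome order (horizontal axis), around AT1G26400 (left) and AT5G44380 (right). Points are slides, joined within a regime. AT1G26400 stood above its neighbours after IVT and 2IVT, AT1G26410 reached 1.61 and 1.83 on the PCR slides, and AT5G44390 and AT5G44400 lay below 0 on most slides while AT5G44380 lay above it.

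Oligogalacturonide oxidases, which act on pectin fragments, are encoded by AT4G20830, AT4G20840 and AT1G11770. AT4G20830 was called higher in 90%-late siliques after IVT (0.51 ± 0.10, SD, n = 2 slides) and lower after PCR (-0.60 ± 0.10). AT4G20840 was called higher after IVT (0.46 ± 0.02) and had means from -0.04 to 0.16 elsewhere. AT1G11770 was called higher after IVT (0.76 ± 0.07) and in unamplified target (0.60 ± 0.18). No ratio of these 3 genes came near those of AT1G26400 after amplification. AT4G20820 was not called in any regime, and AT1G30730 in none of the 3 in which it had values.

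Few other genes of the pathways that family members serve could be named on the array. Listed genes without a named probe are not counted as measured, though a probe for them may be present. ADPG1, a polygalacturonase that acts in pod opening, was the measured gene of 6 polygalacturonases and their inhibitors, and was called higher in all 4 regimes (3.94 ± 0.18 after IVT, 1.95 ± 0.18 after 2IVT, 1.88 ± 0.40 after PCR and 5.31 ± 0.15 in unamplified target). Of 17 laccases, which also oxidize monolignols, AT5G01050 was measured, with 1.29 ± 0.07, 0.97 ± 0.11, 0.64 ± 0.04 and 0.07 ± 0.17 in the same order, and it was called higher in the amplified regimes. Of 18 genes of lignin precursor synthesis, 2 were measured. HCT was called lower after PCR (-0.38 ± 0.26), as were 15.9% of all probes. CCR2 was called higher after 2IVT (0.41 ± 0.09), as were 19.8%. Neither was called in another regime, where HCT had means from -0.33 to -0.12 and CCR2 from -0.33 (unamplified) to 0.23 (PCR). Of 7 genes of indole nitrile and camalexin synthesis AT1G26380 alone had a named probe.

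The 5 named genes whose 8 ratios lay closest to those of AT1G26400, by root mean square difference over 8 slides among 11272 probes, were AT3G44830 (0.43), AT5G16460 (0.55), AT2G21720 (0.79), AT5G24130 (0.93) and AT2G11390 (0.96). AT3G44830 had means of 3.08 ± 0.02 (SD, n = 2 slides) after IVT, 3.26 ± 0.05 after 2IVT, 1.76 ± 0.35 after PCR and 0.64 ± 0.19 in unamplified target. Its order of regimes is that of AT1G26400, as follows from picking the closest probe, and nothing is read from it. For AT5G44380, over the 7 slides with a value, the closest were AT3G46110 (0.75), AT3G43660 (0.82), AT3G19080 (0.91), AT1G11040 (0.95) and AT3G43630 (1.01). Their PCR means were 2.41 or below, against 3.61 for AT5G44380, the ratio by which that gene was chosen. AT3G46110 had 0.84 ± 0.09 after IVT, 1.38 ± 0.13 after 2IVT, 2.41 ± 0.35 after PCR and 0.64 ± 0.02 in unamplified target.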

How the data were processed

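The authors scanned each slide with GenePix and deposited log2 ratios, normalized within a slide by the global mean, the local mean across its surface and the local mean across signal intensity (SNOMAD elements in an S-PLUS script). The sources used here do not say whether spot filters and the replacement of saturated spots preceded deposit, and depth or intensity is unknown. The log base and direction were inferred, and signs were turned. No further normalization was applied. Probes were named through the platform annotation and the locus tags of the TAIR10.1 gene table. Of 26912 probes, 14539 had a symbol and 14485 matched a locus. Family membership and roles are background knowledge, since the annotation gives most of these genes by locus only.

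The 4 regimes were fitted together in limma 3.58.1 (lmFit, eBayes, R 4.3.3), over probes with a value on both slides of some regime (6.65 prior degrees of freedom). P-values were adjusted by Benjamini-Hochberg over all probes of a comparison. The labels name the replicates as labelling replicates 1 and 2. For each amplified regime the authors describe 2 separate amplifications of 1 early sample. For 2 slides against 2 the smallest two-sided p of an exact permutation test is 0.333, so none was used. The fit was tested on simulated data. Members and lists were chosen with earlier results of these data known. Named are both genes, the measured genes of the family, up to 2 genes per other list, and for each gene the 5 probes closest by root mean square difference. Python 3.11.15, numpy 2.4.6, pandas 2.3.3 and matplotlib 3.10.9 were used. The alternatives were centring and scaling of slides, probes with all values, robust empirical Bayes, a replicate block, separate fits and leaving out each slide.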

Additional observations from a re-analysis of the deposited data

Results flagged for a closer look

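The stage ratio of AT1G26400 differed between 2 amplified regimes. PCR minus IVT was -0.93 on the log2 scale (adjusted p = 0.00101, limma), and 0.11 with slides scaled to a common spread. AT4G20830, an oligogalacturonide oxidase gene, was called higher in 90%-late siliques after IVT and lower after PCR, and the difference PCR minus IVT was -1.11 (adjusted p = 0.000488, limma). With 2 slides per regime, single outlying slides could not be tested for.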

How the results depend on the processing

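Scaling slides to a common spread moved AT1G26400 most: IVT minus unamplified was 2.06, PCR minus unamplified 2.16, 2IVT minus IVT 0.997, PCR minus 2IVT -0.89, and PCR minus IVT turned to 0.11. For AT5G44380 it gave 4.35 after PCR, and 3.24, 3.80 and 3.56 for PCR minus unamplified, minus IVT and minus 2IVT. With only probes that had a value on all 8 slides, 5 of 17 other family probes were called lower after IVT and 5 after 2IVT. Over all such probes, 6825 and 5427 of 20638 were called lower. AT5G44380 was not among those fitted.

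Leaving out 1 slide, AT5G44380 ranged from 0.41 to 0.90 after IVT, from -0.70 to -0.21 for IVT minus unamplified and from -0.0868 (without IVT replicate 2) to 0.404 for 2IVT minus IVT. Without unamplified replicate 2 it had no unamplified value. Over all probes, calls lower after IVT ranged from 4915 to 8153, calls after PCR from 1782 to 3977 higher and 1887 to 4496 lower, and in unamplified target from 2765 to 4573 higher and 3530 to 6867 lower. Other family probes ranged from 3 to 5 higher and 2 to 6 lower after PCR and from 2 to 5 higher in unamplified target. Counts moved by over 1.5 times without IVT replicate 2 (4915 lower), PCR replicate 1 (2059 higher, 2064 lower), PCR replicate 2 (1782 and 1887), unamplified replicate 1 (3846 lower) and unamplified replicate 2 (2765 and 3530).

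The replicate numbers only name slides: between regimes, the gap of replicate 1 to replicate 2 correlated from -0.06 to 0.03 over probes. With a replicate block AT5G44380 had 1.26 in unamplified target, and 4146 probes were called higher and 6079 lower there. With that block, no tested ratio or difference of either gene gained or lost its call. Only 2 slides per regime and the unknown intensities limit the precision.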
